A study of Mus musculus with 24 samples.

Results

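The antiviral interferon-stimulated effector genes form a list of 39 mouse genes whose proteins act against viruses in cells exposed to interferon. Of these, 38 were found by name among the gene names of the arrays and 1, Dtx3l, was not. Each of the 38 passed the filter, which asked for a signal well above background on every array of 1 group or more, and is represented by its brightest probe. They are 38 of the 15085 gene names tested. RNA came from RAW264.7 cells, a mouse macrophage-like line, that carried a construct for Tbc1d23, a member of the TBC family of Rab regulators, or for chloramphenicol acetyltransferase (CAT), a bacterial enzyme that serves as the control. Cells of both lines grew in 400 ug/ml G418 and were either lysed unexposed (0 h) or after 1, 3 or 5 h with lipopolysaccharide (LPS, the bacterial ligand of TLR4) at 20 ng/ml. Each of the 8 groups has 3 one-colour arrays, 24 in all. The labels do not name more than 1 line per construct. A difference between the constructs and a difference between these 2 lines therefore cannot be told apart.

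LPS bound by TLR4 signals through a first adaptor pair to NF-kB and through TRIF to IRF3, which switches on the interferon-beta gene. Secreted interferon-beta then binds the receptor formed by Ifnar1 and Ifnar2, and STAT2 and IRF9 help carry the signal to interferon-stimulated response elements (ISREs) in the promoters of effector genes. In macrophages some of these genes are also switched on directly by IRF3, before any interferon has acted.

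The sequences below show where that element lies in promoters of genes described here, with its core, GAAANNGAAA read on either strand, in capitals. They come from RefSeq (mouse build GRCm38.p6), run 5′ to 3′ on the gene's strand and end before the start of transcription.

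Isg15, chr4:156200819-156200908, minus strand: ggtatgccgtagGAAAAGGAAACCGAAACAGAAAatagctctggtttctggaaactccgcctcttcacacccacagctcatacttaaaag

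Ifit1, chr19:34640773-34640862, plus strand: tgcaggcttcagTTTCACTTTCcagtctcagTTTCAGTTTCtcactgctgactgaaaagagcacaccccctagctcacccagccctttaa

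Ifit3, chr19:34583361-34583450, plus strand: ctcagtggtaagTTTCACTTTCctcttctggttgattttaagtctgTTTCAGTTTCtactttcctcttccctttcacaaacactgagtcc

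Rsad2, chr12:26456495-26456584, minus strand: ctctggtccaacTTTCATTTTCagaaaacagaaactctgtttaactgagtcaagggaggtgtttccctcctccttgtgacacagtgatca

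Oas1a, chr5:120907526-120907615, minus strand: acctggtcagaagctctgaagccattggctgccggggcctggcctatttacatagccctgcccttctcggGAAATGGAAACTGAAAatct

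Oas1g, chr5:120887614-120887703, minus strand: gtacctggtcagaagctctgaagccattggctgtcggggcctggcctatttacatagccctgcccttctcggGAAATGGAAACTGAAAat

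Stat2, chr10:128270264-128270353, plus strand: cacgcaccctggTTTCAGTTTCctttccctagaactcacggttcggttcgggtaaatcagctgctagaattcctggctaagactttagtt

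Oasl1, chr5:114923150-114923239, plus strand: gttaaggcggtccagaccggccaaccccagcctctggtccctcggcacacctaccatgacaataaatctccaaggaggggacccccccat

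Isg15 carries 3 overlapping copies of the core within the stretch from base -78 to base -57 before its start. Ifit1 and Ifit3 each carry 2 separate copies read on the opposite strand, and Rsad2 carries 1. The stretches of Oas1a and Oas1g are alike and both end in a pair of overlapping cores. Stat2 carries 1 core at base -222 to -213. Oasl1 is shown because its stretch holds no match, and the absence of these letters says nothing more than that.

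The core was present in 1131 of 32851 RefSeq promoters, each from 250 bases before the start to 50 after it (3.44%), and in 3.99% of 27025 genes. It was present in 11 of the 30 listed genes found in that table (36.7%). These were Ifit1, Ifit3, Isg15, Rsad2, Oas1a, Oas1g, Oas3, Eif2ak2, Bst2, Ifitm3 and Stat2. In Eif2ak2 and Ifitm3 the matches lie after the start. The interferon-gamma activated site, TTCNNNGAA, was present in 8.3% of promoters, in 9.55% of genes and in 8 of the 30 listed genes (26.7%). Mx1, Mx2, Oas1b, Oas2, Usp18, Rtp4, Parp9, Parp14 and Tor3a were not in the table. A match describes letters and not a bound site.

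**Figure D1:**
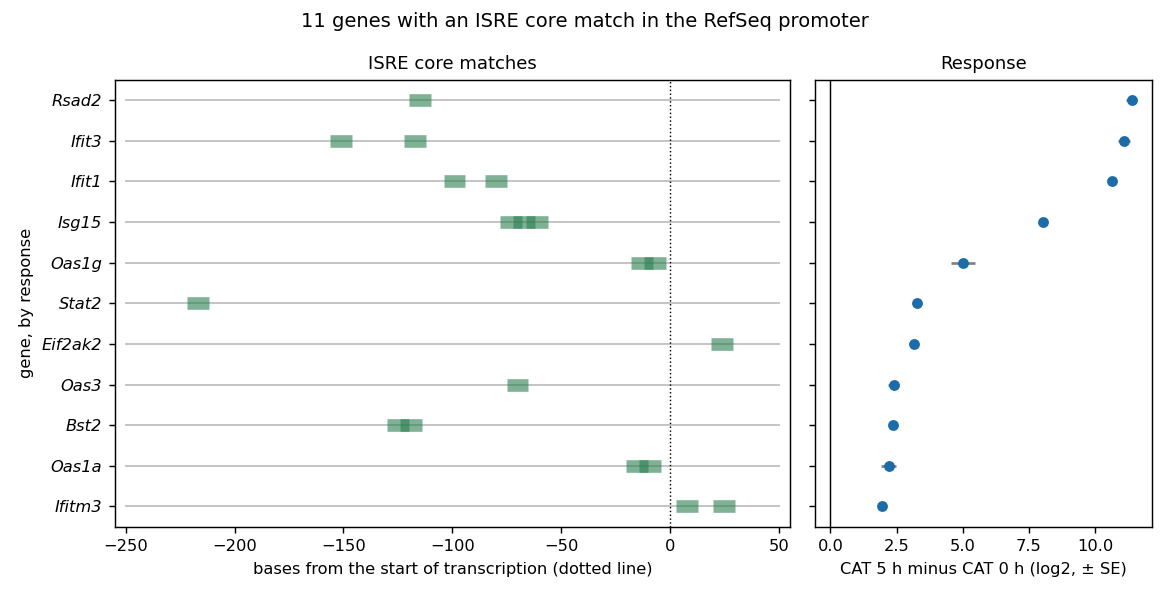
Positions of ISRE core matches in bases from the start of transcription (left) and the log2 difference of CAT 5 h minus CAT 0 h with its standard error (right) for the 11 genes with a match. Responses run from 1.94 for Ifitm3 to 11.39 for Rsad2, and 9 of the 11 genes have a match before the start. The size of the Oas1g response is not measured, since none of its CAT arrays at 0 h was well above background.

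Of the 24 arrays, 42 to 69.5% of probes per array were well above background, and the correlation between replicates was 0.967 to 0.993 across genes, which are not independent replicates. Both extremes were Tbc1d23 arrays at 0 h, with 69.5% in replicate 1 and 42% in replicate 2. These are the 2 resting arrays left out in an alternative fit. The Tbc1d23 transcript, the check of the construct, read 2.90, 3.37 and 3.29 at 0 h, 3.38, 3.36 and 3.14 at 1 h, 2.92, 2.84 and 2.52 at 3 h, and 3.21, 3.39 and 3.20 at 5 h in CAT arrays (log2, relative to the array's 75th percentile). It read 3.00, 3.15 and 3.51 at 0 h, 2.92, 3.02 and 3.48 at 1 h, 3.02, 3.05 and 3.63 at 3 h, and 2.94, 2.83 and 3.49 at 5 h in Tbc1d23 arrays. It differed between the lines by 0.03 ± 0.209 at 0 h and -0.15 ± 0.209, 0.47 ± 0.209 and -0.18 ± 0.209 (log2) at 1, 3 and 5 h on its brightest probe, none of them called. Its second probe differed by 0.36, 0.18, 1.00 and 0.49 (log2), called at 3 h (adjusted p = 0.000118) and 5 h (adjusted p = 0.0251). Whether either probe lies in the expressed construct was not tested, so the Tbc1d23 line means the line so labelled. Of 10 macrophage markers, 8 were tested and all 8 were well above background on all 3 arrays of every group. Of other cell types, 2 of 6 T and NK markers, 3 of 5 B cell, 4 of 5 dendritic, 3 of 6 granulocyte and erythroid and 3 of 6 fibroblast and epithelial markers could be tested. The summed level of the dendritic markers was 0.63 to 1.03 (log2) in CAT arrays at 0 h and 2.49 to 2.78 at 5 h, and -1.05 to -0.17 and -0.17 to 0.25 in Tbc1d23 arrays. That of the B cell markers was -2.53 to -1.34 at 0 h in CAT arrays and -0.26 to 0.60 in Tbc1d23 arrays. Fibroblast and epithelial markers summed to -1.31 to -1.04 and -3.12 to -1.49 at 0 h, T and NK markers to -1.58 to -0.79 and -1.40 to -0.79, and granulocyte and erythroid markers to -2.30 to -1.18 and -1.63 to -0.24. The part of these markers' cells in the results was not tested. All CAT arrays and Tbc1d23 replicate 3 lie on 4 slides whose serial numbers form 1 run, and Tbc1d23 replicates 1 and 2 on 2 slides of another run, so differences between the lines are also given within the shared run.

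Levels below are log2 signals relative to the 75th percentile of the same array, given for replicates 1, 2 and 3. A level of 0 equals that percentile, and levels of different genes are not compared, since each probe has its own brightness. Differences are on the log2 scale ± their standard error from limma, and each group has n = 3 arrays. Where a gene was not well above background on any array of a group, its fold against that group is a lower bound, written as at least. The fitted difference of such a gene enters the counts but its size is not a measurement. A gene is called when its Benjamini-Hochberg adjusted p over all 15085 gene names is under 0.05.

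In the CAT line LPS raised nearly the whole list. At 1 h 5 of the 38 genes were called higher and 2 lower, against 3.67% and 3.9% of all gene names. At 3 h 36 were called higher and none lower, against 16.2% of all gene names called higher, and 34 of them rose at least 2-fold, against 7.62%. At 5 h 37 were called higher and 1 lower, against 18.5% and 23.3%. The median difference from 0 h was -0.04 at 1 h, 2.39 at 3 h and 3.28 at 5 h, where the median of all gene names was -0.10, -0.02 and 0.01. Between 3 h and 5 h 29 genes rose further, against 6.67%. Ifit2, Mx1 and Oas1b passed the filter on dim probes only through their CAT levels at 3 or 5 h; among the other 35, 34 were higher at 5 h and 1 lower. No gene was called lower at 3 h, where limma gave 1 (Ifi30) at an unadjusted p under 0.05. With median scaling none was called lower at 1 h or 5 h. In bulk RNA, a larger share of responding cells and more RNA per cell cannot be told apart.

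The same exposure gave few calls in the Tbc1d23 line in the fit used, which does not pair arrays by slide. At 1 h 1 gene was called higher and 1 lower, against 0.835% and 0.842% of all gene names. At 3 h 2 were higher and 5 lower, against 3.44% and 3.36%. At 5 h 6 were higher and 4 lower, against 3.04% and 3.31%, and the median difference from 0 h was -0.19 where that of all gene names was -0.02. Between 3 and 5 h 4 genes rose and none fell (2 were lower at an unadjusted p under 0.05), against 0.252% called higher. With the slide as a block within each line, 2, 4 and 8 genes were higher and 2, 9 and 12 lower at 1, 3 and 5 h. The share of all gene names called in that fit is not given, so these counts are not read as particular to the list. On the arrays of the shared run alone, Ifit1, Ifit3, Isg15, Mx2, Tor3a, Usp18 and Sp100 were not called at 5 h. That run holds 1 Tbc1d23 array per time, so a change within the line there compares 1 array with 1. Median scaling ended the calls of Ifit2, Isg15, Usp18, Mx2, Sp100 and Tor3a, and without 2 resting Tbc1d23 arrays 3 were higher.

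**Figure D2:**
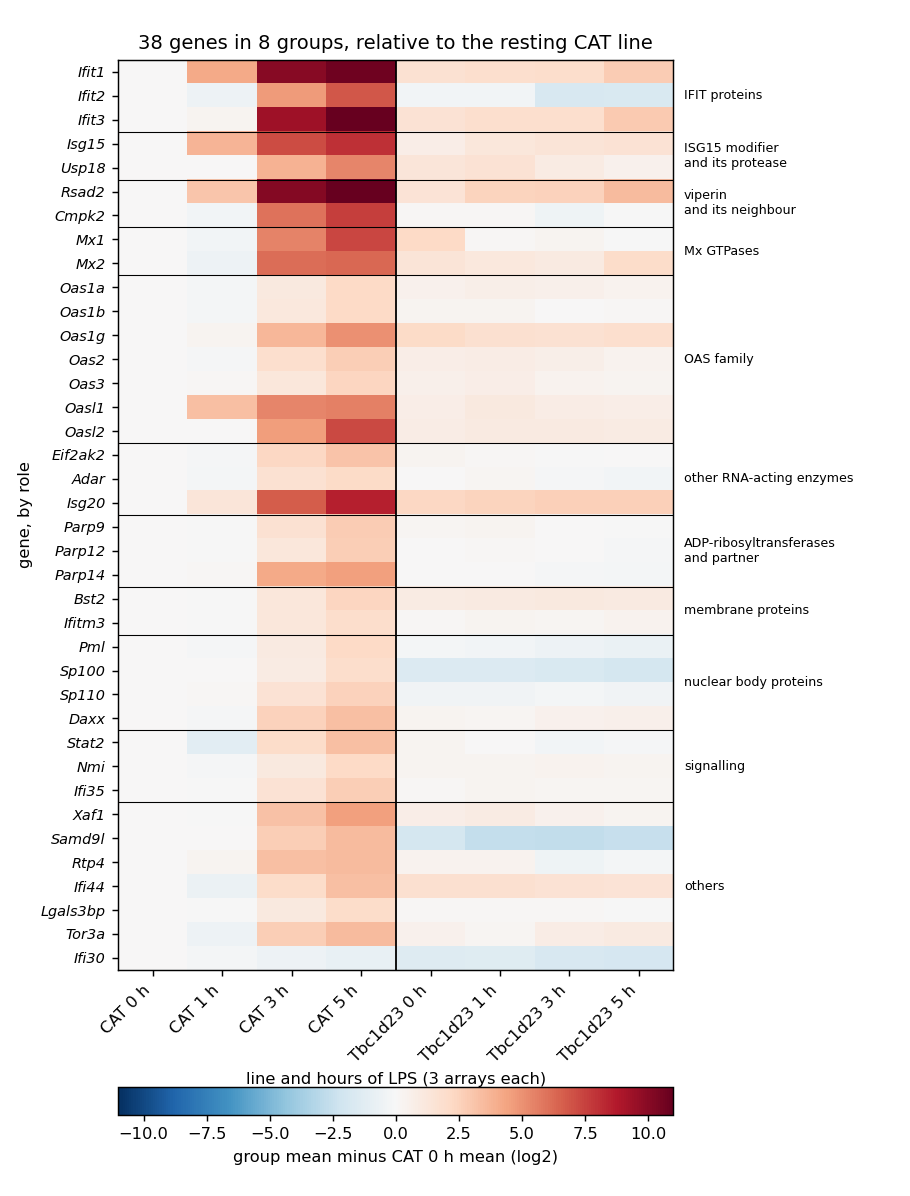
Mean log2 level of the 38 genes, by role, in the 8 groups of 3 arrays, relative to the CAT line at 0 h (colour scale in log2). At 3 and 5 h the CAT columns lie above 0 for every gene but Ifi30. The median change from the line's own 0 h column is 3.28 at 5 h for CAT and -0.19 for Tbc1d23.

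The onset of a gene was taken as the first time at which it was called higher than 0 h and at least 2-fold up. In the CAT line the onset was at 1 h for 5 genes (Ifit1, Isg15, Isg20, Rsad2 and Oasl1), against 2.12% of all gene names. It was at 3 h for 29 genes, against 5.83%, and at 5 h for Oas1b, Sp100 and Pml, against 2.39%. Ifi30 had none. In the Tbc1d23 line no gene had its onset at 1 h, against 0.57%. Rsad2 had its onset at 3 h, against 1.21%, and Ifit1 and Ifit3 at 5 h, against 0.212%. For the other 35 genes no time met the rule in the Tbc1d23 line. The Rsad2 difference of 1.00 lay at the 2-fold limit. No gene had its Tbc1d23 onset at 3 h in 6 of the 24 fits that left out 1 array, nor with normexp, the all-array filter or the mean of a gene's probes. The same held with quantile normalization, with the deposited values and without 2 resting arrays, where 1 gene had its onset at 1 h.

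The IFIT proteins bind viral RNA and the translation machinery. Ifit1 levels in CAT arrays were -3.02, -3.83 and -3.16 at 0 h, 0.57, 1.05 and 0.92 at 1 h, 6.54, 6.76 and 6.63 at 3 h, and 7.15, 7.39 and 7.43 at 5 h. The groups did not overlap at any time, with a difference from 0 h of 4.19 ± 0.168 at 1 h, 9.98 ± 0.168 at 3 h and 10.66 ± 0.168 at 5 h (1620-fold, adjusted p = 8.23e-19). In Tbc1d23 arrays Ifit1 stood at -1.78, -1.50 and -1.78 at 0 h, -1.47, -1.46 and -1.40 at 1 h, -1.55, -1.42 and -1.24 at 3 h, and -0.60, -0.55 and -0.61 at 5 h. It moved by 1.10 ± 0.168 by 5 h (adjusted p = 0.000252), a 2.14-fold rise, and all 3 arrays at 5 h lay above all earlier arrays of that line.

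Ifit3 began its rise later. Its CAT levels were -3.91, -4.35 and -3.93 at 0 h, -3.33, -3.77 and -4.27 at 1 h, 5.28, 5.35 and 5.19 at 3 h, and 6.88, 7.03 and 7.22 at 5 h, with 1 array at 0 h not well above background. The arrays at 0 and 1 h overlapped, and the difference from 0 h reached 9.33 ± 0.225 at 3 h and 11.10 ± 0.225 at 5 h (adjusted p = 1.55e-17). The Tbc1d23 arrays gave -2.59, -2.58 and -2.20 at 0 h, -2.27, -2.44 and -2.00 at 1 h, -2.43, -2.31 and -1.81 at 3 h, and -1.54, -0.88 and -1.10 at 5 h. The rise of 1.28 ± 0.225 at 5 h (adjusted p = 0.00098) was 2.44-fold, against 2200-fold in the CAT line.

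Ifit2 was near background before LPS. CAT arrays read -3.56, -4.19 and -4.08 at 0 h, -4.67, -4.44 and -4.38 at 1 h, 0.45, 0.78 and 0.93 at 3 h, and 2.70, 2.70 and 3.12 at 5 h, with 1 array at 0 h and 2 at 1 h not well above background. It rose by 4.66 ± 0.384 at 3 h and 6.78 ± 0.384 at 5 h (adjusted p = 3.69e-11). Tbc1d23 arrays read -3.67, -4.61 and -4.40 at 0 h, -4.00, -3.95 and -4.76 at 1 h, -5.77, -5.16 and -6.08 at 3 h, and -4.48, -6.35 and -6.05 at 5 h, and only 1 of these 12 arrays, at 0 h, was well above background. Its difference of -1.40 at 5 h (adjusted p = 0.0341) therefore means a fall of at least 1.29-fold, from arrays that overlap. Leaving out any of 4 single Tbc1d23 arrays ended the call, as did quantile normalization (-0.81, adjusted p = 0.222). At 5 h Ifit2 was at least 172-fold lower than in the CAT line.

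Isg15 encodes a ubiquitin-like protein that is joined to other proteins, and Usp18 the protease that removes it and also restrains the interferon receptor. Isg15 levels in CAT arrays were -0.78, -1.61 and -1.25 at 0 h, 2.45, 2.54 and 2.59 at 1 h, 5.97, 5.90 and 5.98 at 3 h, and 6.88, 6.68 and 6.87 at 5 h. Each time lay above the one before without overlap, with 3.74 ± 0.151 at 1 h (13.4-fold, adjusted p = 7.95e-13) and 8.03 ± 0.151 at 5 h. Isg15 in Tbc1d23 arrays read -0.45, -0.43 and -0.53 at 0 h, 0.07, 0.09 and -0.07 at 1 h, 0.25, 0.31 and 0.09 at 3 h, and 0.42, 0.51 and 0.09 at 5 h. Its rise at 5 h was 0.82 ± 0.151, or 1.76-fold (adjusted p = 0.00162), against 261-fold in the CAT line.

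Usp18 rose in the CAT line and was called lower in the other. The CAT arrays gave 2.30, 1.45 and 1.70 at 0 h, 2.16, 1.61 and 1.70 at 1 h, 5.65, 5.76 and 5.58 at 3 h, and 7.29, 7.08 and 7.19 at 5 h. They overlapped between 0 and 1 h and rose by 5.37 ± 0.179 by 5 h (41.3-fold). The Tbc1d23 arrays gave 3.01, 3.07 and 3.25 at 0 h, 3.31, 3.35 and 3.49 at 1 h, 2.59, 2.74 and 2.92 at 3 h, and 2.07, 2.39 and 2.39 at 5 h. They started above the CAT arrays without overlap and fell by 0.83 by 5 h (adjusted p = 0.00621), with all 3 arrays at 5 h below all 3 at 0 h. With median scaling neither the fall (-0.56, adjusted p = 0.876) nor the start difference of 1.29 (0.74, adjusted p = 0.12) was called. The fall was also not called in the shared run (-0.86), which holds 1 Tbc1d23 array per time. Nor was it called without 2 resting arrays, which leaves 1 at 0 h.

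Rsad2 encodes viperin, which makes a chain-ending nucleotide, and its neighbour Cmpk2, on the opposite strand of chromosome 12, a nucleotide kinase of mitochondria. Rsad2 in CAT arrays read -4.69, -5.10 and -4.45 at 0 h, -1.67, -1.87 and -1.49 at 1 h, 5.41, 5.30 and 5.34 at 3 h, and 6.65, 6.49 and 6.78 at 5 h, with 2 of the arrays at 0 h not well above background. The rise was 3.07 ± 0.204 at 1 h, 10.10 ± 0.204 at 3 h and 11.39 ± 0.204 at 5 h (2680-fold, adjusted p = 4.58e-18). Tbc1d23 arrays read -2.88, -3.07 and -3.77 at 0 h, -2.05, -2.28 and -2.44 at 1 h, -2.14, -2.09 and -2.48 at 3 h, and -1.46, -1.07 and -1.40 at 5 h. It was the only listed gene called higher at 1 h in that line (0.98 ± 0.204, adjusted p = 0.0122), a call that ended when either of 2 single arrays was left out. The rise at 5 h was 1.93 ± 0.204 (3.81-fold, adjusted p = 3.3e-06). The Tbc1d23 arrays of the shared run, 1 per time, read -3.77 at 0 h and -1.40 at 5 h.

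Cmpk2 levels in CAT arrays were -1.65, -1.77 and -1.60 at 0 h, -1.84, -2.26 and -1.92 at 1 h, 4.28, 4.41 and 4.18 at 3 h, and 5.76, 5.86 and 6.22 at 5 h. They did not move up at 1 h and rose by 7.62 ± 0.144 at 5 h (197-fold, adjusted p = 7.11e-18). In Tbc1d23 arrays Cmpk2 stood at -1.53, -1.36 and -1.63 at 0 h, -1.64, -1.49 and -1.62 at 1 h, -2.10, -2.09 and -2.22 at 3 h, and -1.59, -1.48 and -1.99 at 5 h. It fell by 0.63 at 3 h (adjusted p = 0.00968) and differed from 0 h by -0.18 ± 0.144 at 5 h (adjusted p = 0.73), where the arrays overlapped. The pair of neighbours thus gave 1 called rise and 1 uncalled value in the Tbc1d23 line at 5 h.

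**Figure D3:**
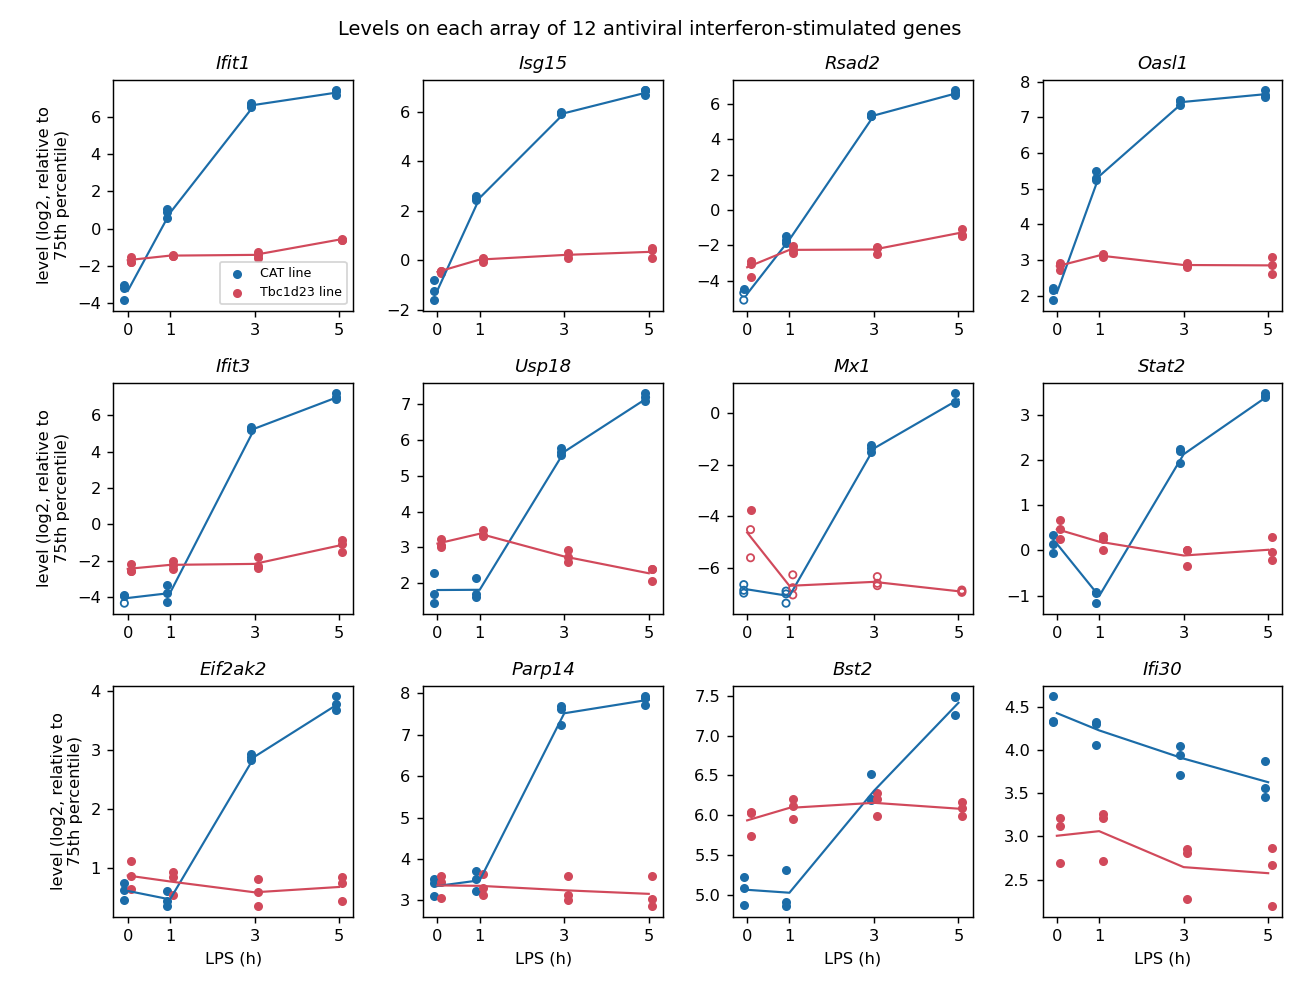
Level (log2, relative to the array's 75th percentile) against hours of LPS for 12 genes, with 1 point per array, lines through group means, and open points for arrays not well above background. Ifit1, Isg15, Rsad2 and Oasl1 rise by 1 h in the CAT line, Ifit3 and Usp18 by 3 h, and Ifi30 declines.

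Mx1 and Mx2 encode dynamin-like GTPases that trap viral nucleocapsids. Mx1 was near background: CAT arrays read -6.87, -6.65 and -6.98 at 0 h, -6.90, -7.01 and -7.37 at 1 h, -1.50, -1.36 and -1.26 at 3 h, and 0.43, 0.37 and 0.76 at 5 h, and none of the 6 arrays at 0 and 1 h was well above background. It was at least 9.37-fold higher at 3 h and at least 34.8-fold higher at 5 h (adjusted p = 4.37e-13). Tbc1d23 arrays read -3.77, -5.61 and -4.52 at 0 h, -6.77, -6.27 and -7.05 at 1 h, -6.34, -6.60 and -6.69 at 3 h, and -6.95, -6.91 and -6.86 at 5 h, with 1 of these 12, at 0 h, well above background. The difference of -2.27 at 5 h (adjusted p = 5.99e-05) means a fall of at least 1.02-fold, and a second Mx1 probe gave -0.18 for the same comparison.

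Mx2 could be followed on all 24 arrays. CAT levels were -1.42, -1.49 and -1.33 at 0 h, -1.90, -1.97 and -2.01 at 1 h, 4.85, 4.77 and 4.53 at 3 h, and 4.89, 4.89 and 5.05 at 5 h. They rose by 6.13 ± 0.18 at 3 h and stayed there, with 6.35 ± 0.18 at 5 h (adjusted p = 1.96e-15) and 0.22 ± 0.18 between 3 and 5 h (adjusted p = 0.564). Tbc1d23 levels were 0.16, 0.04 and -0.25 at 0 h, -0.34, 0.01 and -0.40 at 1 h, -0.45, -0.26 and -0.43 at 3 h, and 0.63, 1.08 and 0.10 at 5 h. The start was 1.39 ± 0.18 above the CAT line without overlap, and the rise of 0.62 ± 0.18 at 5 h (adjusted p = 0.0466) came from overlapping arrays and was lost in 20 of the 24 fits that left out 1 array.

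The OAS family makes short oligoadenylates that activate an RNA-cutting enzyme, an activity that Oasl1 lacks. At 5 h 7 of 7 were called higher in the CAT line. In the Tbc1d23 line limma called 0 of 7 in either direction, and 1 of 7, Oas2, was lower at an unadjusted p under 0.05. Oas1a, Oas1b and Oas1g are close copies of one another, and how far their probes share signal was not tested.

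Oasl1, a brake on Irf7 translation, was the early member. Its CAT levels were 2.21, 1.88 and 2.16 at 0 h, 5.24, 5.30 and 5.51 at 1 h, 7.49, 7.35 and 7.46 at 3 h, and 7.76, 7.57 and 7.64 at 5 h. The rise of 3.27 ± 0.116 at 1 h (adjusted p = 1.27e-13) was followed by 5.35 ± 0.116 at 3 h and 5.57 ± 0.116 at 5 h, and the step from 3 to 5 h of 0.22 was not called (adjusted p = 0.258). Tbc1d23 levels were 2.72, 2.85 and 2.91 at 0 h, 3.14, 3.17 and 3.08 at 1 h, 2.85, 2.92 and 2.82 at 3 h, and 2.85, 3.09 and 2.62 at 5 h. They began above the CAT arrays and differed from 0 h by 0.02 ± 0.116 at 5 h (adjusted p = 0.999).

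Oasl2 rose late and far. CAT arrays read -1.83, -1.94 and -1.58 at 0 h, -1.50, -1.94 and -1.66 at 1 h, 2.98, 3.01 and 2.57 at 3 h, and 5.28, 5.55 and 5.63 at 5 h. The difference was 4.64 ± 0.222 at 3 h and 7.27 ± 0.222 at 5 h (154-fold, adjusted p = 5.43e-15), with a step of 2.63 between the 2 times. Tbc1d23 arrays read -1.41, -0.84 and -0.73 at 0 h, -1.09, -0.37 and -0.81 at 1 h, -1.19, -0.78 and -0.46 at 3 h, and -1.11, -0.73 and -0.80 at 5 h and overlapped at all times, with 0.11 ± 0.222 at 5 h (adjusted p = 0.994).

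Oas1a changed less. CAT levels were 2.69, 2.08 and 2.39 at 0 h, 2.40, 1.93 and 2.24 at 1 h, 3.42, 3.29 and 3.57 at 3 h, and 4.64, 4.51 and 4.64 at 5 h. They rose by 1.04 ± 0.284 at 3 h and, by 5 h, 2.21 ± 0.284 (4.62-fold, adjusted p = 2.95e-06). Tbc1d23 levels were 3.02, 3.23 and 2.33 at 0 h, 3.30, 3.28 and 2.51 at 1 h, 3.12, 3.24 and 2.37 at 3 h, and 2.96, 3.16 and 2.27 at 5 h, with replicate 3, from the run shared with the CAT line, the lowest at every time. All 4 times overlapped there, and the difference at 5 h was -0.06 ± 0.284 (adjusted p = 0.999).

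Oas1g, whose promoter stretch is almost that of Oas1a, rose at least 16.2-fold in the CAT line by 5 h (adjusted p = 2.02e-08), from arrays at 0 h that were all not well above background. Oas2 rose by 2.74 ± 0.152, Oas3 by 2.39 ± 0.21 and Oas1b by 2.21 ± 0.48 at 5 h in the CAT line. In the Tbc1d23 line Oas1g, Oas2, Oas3 and Oas1b differed by -0.29, -0.36, -0.27 and -0.16 at 5 h, with adjusted p of 0.958, 0.239, 0.697 and 0.999. Oas2 was called lower there with the slide as a block (adjusted p = 0.0123).

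Among other enzymes that act on RNA, Eif2ak2 (PKR) stops translation when it binds double-stranded RNA, Adar edits adenosines in such RNA, and Isg20 is an exonuclease. Isg20 levels in CAT arrays were -3.13, -2.81 and -2.96 at 0 h, -1.63, -1.65 and -1.61 at 1 h, 3.59, 3.80 and 3.75 at 3 h, and 5.47, 5.48 and 5.87 at 5 h. The early rise of 1.34 ± 0.116 (adjusted p = 9.16e-08) grew to 8.57 ± 0.116 at 5 h, or 381-fold. In Tbc1d23 arrays Isg20 read -0.54, -0.81 and -0.82 at 0 h, -0.53, -0.45 and -0.53 at 1 h, -0.38, -0.27 and -0.40 at 3 h, and -0.36, -0.47 and -0.22 at 5 h. It started 2.25 ± 0.116 above the CAT line (4.74-fold, adjusted p = 2.45e-11), and its difference at 5 h was 0.37 ± 0.116 (adjusted p = 0.0697; 0.026 with the slide as a block). Another Isg20 probe, well above background on all 24 arrays, gave 1.36 for the start and a called 0.56 at 5 h (adjusted p = 0.0229).

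Eif2ak2 in CAT arrays read 0.63, 0.46 and 0.74 at 0 h, 0.61, 0.35 and 0.44 at 1 h, 2.83, 2.93 and 2.88 at 3 h, and 3.78, 3.67 and 3.90 at 5 h. It rose by 2.27 ± 0.147 at 3 h and 3.17 ± 0.147 at 5 h (adjusted p = 1.99e-12). Tbc1d23 arrays read 0.64, 0.86 and 1.11 at 0 h, 0.54, 0.84 and 0.93 at 1 h, 0.35, 0.59 and 0.82 at 3 h, and 0.44, 0.75 and 0.84 at 5 h. Each later time overlapped with 0 h in that line, and the difference at 5 h was -0.20 ± 0.147 (adjusted p = 0.684).

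Adar rose less. CAT arrays read 1.83, 1.28 and 1.41 at 0 h, 1.61, 1.14 and 1.25 at 1 h, 3.16, 3.24 and 3.25 at 3 h, and 3.68, 3.53 and 3.59 at 5 h. The rise was 1.71 ± 0.133 at 3 h and 2.09 ± 0.133 at 5 h (adjusted p = 1.87e-10). Tbc1d23 arrays read 1.41, 1.57 and 1.60 at 0 h, 1.72, 1.59 and 1.81 at 1 h, 1.33, 1.30 and 1.43 at 3 h, and 1.07, 1.26 and 1.29 at 5 h, with -0.32 ± 0.133 at 5 h (adjusted p = 0.214; 0.0437 with the slide as a block).

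Parp9, Parp12 and Parp14 transfer ADP-ribose or, for Parp9, work with the ubiquitin ligase Dtx3l. All 3 were called higher in the CAT line at 3 and 5 h. Parp14 levels in CAT arrays were 3.12, 3.42 and 3.51 at 0 h, 3.70, 3.52 and 3.24 at 1 h, 7.62, 7.70 and 7.22 at 3 h, and 7.71, 7.92 and 7.89 at 5 h. It rose by 4.16 ± 0.209 at 3 h (17.9-fold) and by 4.49 ± 0.209 at 5 h, and the step between them was not called (adjusted p = 0.409). Parp14 in Tbc1d23 arrays read 3.07, 3.44 and 3.58 at 0 h, 3.13, 3.30 and 3.63 at 1 h, 3.02, 3.14 and 3.58 at 3 h, and 2.86, 3.03 and 3.59 at 5 h. That is -0.20 ± 0.209 at 5 h (adjusted p = 0.855), with overlap at all times. Parp12 and Parp9 rose by 2.74 ± 0.137 and 2.76 ± 0.234 at 5 h in the CAT line and differed by -0.20 and -0.25 in the Tbc1d23 line (adjusted p = 0.607 and 0.794).

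Among membrane proteins, Bst2 (tetherin) holds budding virions at the cell surface and Ifitm3 hinders fusion in endosomes. Bst2 levels in CAT arrays were 5.09, 4.88 and 5.23 at 0 h, 5.32, 4.86 and 4.91 at 1 h, 6.52, 6.19 and 6.21 at 3 h, and 7.49, 7.26 and 7.48 at 5 h. They rose by 1.24 ± 0.141 at 3 h and, by 5 h, 2.35 ± 0.141 (5.08-fold, adjusted p = 8.45e-11). Bst2 in Tbc1d23 arrays read 5.74, 6.04 and 6.03 at 0 h, 5.95, 6.21 and 6.12 at 1 h, 5.99, 6.28 and 6.20 at 3 h, and 5.99, 6.17 and 6.09 at 5 h. Its start lay 0.87 ± 0.141 above the CAT line without overlap, the change by 5 h was 0.15 ± 0.141 (adjusted p = 0.814), and at 3 h the 2 lines overlapped (-0.15 ± 0.141, adjusted p = 0.407).

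Ifitm3 in CAT arrays read 4.91, 4.57 and 4.81 at 0 h, 4.98, 4.45 and 4.73 at 1 h, 6.16, 5.78 and 6.03 at 3 h, and 6.89, 6.52 and 6.71 at 5 h. It rose by 1.94 ± 0.152 at 5 h, or 3.83-fold (adjusted p = 3.95e-09). Tbc1d23 arrays read 4.74, 4.81 and 5.13 at 0 h, 4.98, 4.97 and 5.23 at 1 h, 4.88, 4.87 and 5.12 at 3 h, and 4.99, 5.13 and 5.23 at 5 h, from a start that overlapped the CAT arrays. The change by 5 h was 0.22 ± 0.152 (adjusted p = 0.628; 0.0155 with the slide as a block).

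Pml, Sp100 and Daxx build nuclear bodies that restrain incoming viral genomes, and Sp110 is a relative of Sp100. Pml levels in CAT arrays were 1.15, 1.11 and 1.17 at 0 h, 1.11, 0.98 and 0.82 at 1 h, 2.17, 2.14 and 1.99 at 3 h, and 3.36, 3.18 and 3.34 at 5 h. They rose by 0.96 ± 0.243 at 3 h, just under 2-fold, and by 2.15 ± 0.243 at 5 h (adjusted p = 5.58e-07). Pml in Tbc1d23 arrays read 0.70, 0.82 and 1.34 at 0 h, 0.62, 0.66 and 1.29 at 1 h, 0.36, 0.25 and 1.07 at 3 h, and 0.18, 0.06 and 0.99 at 5 h, with replicate 3, from the run shared with the CAT line, the highest at every time. The difference of -0.54 ± 0.243 at 5 h was not called (adjusted p = 0.28) and was called with the slide as a block (adjusted p = 0.000295).

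Sp100 in CAT arrays read 2.32, 2.33 and 2.53 at 0 h, 2.68, 2.38 and 2.32 at 1 h, 3.48, 3.35 and 3.19 at 3 h, and 4.27, 4.37 and 4.47 at 5 h, a rise of 1.97 ± 0.107 by 5 h (adjusted p = 1.99e-11). Tbc1d23 arrays read 0.89, 0.99 and 0.91 at 0 h, 0.93, 0.93 and 0.88 at 1 h, 0.61, 0.79 and 0.87 at 3 h, and 0.50, 0.34 and 0.45 at 5 h. They began below the CAT arrays without overlap (-1.47 ± 0.107) and were lower by 0.50 at 5 h (adjusted p = 0.00618). That call ended with median scaling (-0.22, adjusted p = 0.877), and other Sp100 probes gave -0.22 and -0.28, not called. It also ended in the shared run (-0.46), which holds 1 Tbc1d23 array per time, and without 2 resting arrays, which leaves 1 at 0 h. Daxx and Sp110 rose by 3.28 ± 0.132 and 2.55 ± 0.149 at 5 h in the CAT line and differed by 0.24 and 0.06 in the other (adjusted p = 0.449 and 0.999).

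Stat2 is the part of the interferon-activated factor that carries its transactivation domain, while Nmi and Ifi35 bind each other. Stat2 in CAT arrays read 0.35, 0.14 and -0.05 at 0 h, -1.17, -0.93 and -0.94 at 1 h, 1.94, 2.25 and 2.20 at 3 h, and 3.39, 3.41 and 3.48 at 5 h. It first fell by 1.16 at 1 h, the lowest value of the list at that time (adjusted p = 2.13e-05). With median scaling this fall was not called. Stat2 then rose to 1.99 ± 0.151 and 3.28 ± 0.151 above 0 h at 3 and 5 h (adjusted p = 1.71e-12). Tbc1d23 arrays read 0.48, 0.67 and 0.26 at 0 h, 0.25, 0.32 and 0.01 at 1 h, 0.01, 0.00 and -0.35 at 3 h, and 0.29, -0.21 and -0.04 at 5 h. It was lower at 3 h by 0.59 (adjusted p = 0.0207), a call lost when any of 3 single arrays was left out, and differed by -0.46 ± 0.151 at 5 h (adjusted p = 0.0888; 0.028 with the slide as a block).

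Nmi and Ifi35 rose by 2.16 ± 0.168 and 2.74 ± 0.115 at 5 h in the CAT line. Their differences in the Tbc1d23 line were -0.01 ± 0.168 and 0.11 ± 0.115 (adjusted p = 0.999 and 0.854). Both lines overlapped at 0 h for these genes, with start differences of 0.30 and 0.11.

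The remaining genes have varied roles. Samd9l, a factor that curbs translation in infected cells, read -3.05, -3.60 and -3.15 at 0 h, -3.44, -3.55 and -2.79 at 1 h, -1.04, -0.67 and -0.08 at 3 h, and 0.23, 0.09 and 0.42 at 5 h in CAT arrays, all well above background. It rose by 3.51 ± 0.323 by 5 h (adjusted p = 3.59e-08). Tbc1d23 arrays read -4.78, -5.05 and -5.70 at 0 h, -5.42, -5.65 and -6.54 at 1 h, -5.77, -5.96 and -6.13 at 3 h, and -5.37, -5.80 and -6.34 at 5 h, and none of the 12 was well above background. Its start in that line was at least 1.88-fold lower, and it was at least 30.1-fold lower at 5 h.

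Xaf1, linked to cell death, rose by 4.50 ± 0.157 at 5 h in the CAT line, and Rtp4, an inhibitor of viral replication, by 3.48 ± 0.193, with 3.29 ± 0.193 already at 3 h. Tor3a, an ATPase of the endoplasmic reticulum, read 4.35, 4.63 and 4.59 at 0 h, 4.09, 4.02 and 3.82 at 1 h, 7.36, 7.33 and 7.09 at 3 h, and 7.86, 7.96 and 8.04 at 5 h in CAT arrays. It first fell by 0.55 at 1 h (adjusted p = 0.0119). That call was lost with median scaling and when any of 3 single arrays was left out. Tor3a stood 3.43 ± 0.132 above 0 h at 5 h. Tbc1d23 arrays read 4.81, 5.18 and 4.92 at 0 h, 4.64, 4.96 and 4.65 at 1 h, 5.20, 5.43 and 5.30 at 3 h, and 5.39, 5.72 and 5.39 at 5 h. Lgals3bp, a secreted galectin ligand, rose by 2.02 ± 0.211. In the Tbc1d23 line Xaf1, Rtp4 and Lgals3bp differed by -0.45, -0.56 and -0.15 at 5 h (adjusted p = 0.111, 0.108 and 0.952), and the first 2 were called lower with the slide as a block. Tor3a was called higher there at 5 h (0.53 ± 0.132, adjusted p = 0.0182), a call that ended when any of 3 single arrays was left out. Rtp4 was lower at 3 h by 0.82 (adjusted p = 0.0113), a call that ended when either of 2 was.

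Ifi44, whose product is a cytoplasmic protein that curbs viral replication, varied most between replicates. CAT arrays read 1.29, 1.06 and 0.98 at 0 h, 0.59, 0.36 and 0.49 at 1 h, 3.05, 3.28 and 3.01 at 3 h, and 4.16, 4.50 and 4.49 at 5 h, a rise of 3.27 ± 0.532 by 5 h (adjusted p = 4.88e-05). Tbc1d23 arrays read 3.11, 3.44 and 2.12 at 0 h, 3.44, 3.48 and 1.67 at 1 h, 3.22, 3.40 and 1.49 at 3 h, and 3.23, 3.11 and 1.45 at 5 h. All times overlapped there (-0.29 ± 0.532 at 5 h, adjusted p = 0.984), and at 1 h Ifi44 lay 2.38 ± 0.532 above the CAT line, or 1.19 within the shared run.

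Ifi30, a thiol reductase of lysosomes used in antigen presentation, was the listed gene that fell in the CAT line. CAT arrays read 4.62, 4.32 and 4.34 at 0 h, 4.30, 4.06 and 4.32 at 1 h, 3.94, 3.71 and 4.05 at 3 h, and 3.87, 3.45 and 3.56 at 5 h. It fell by 0.80 by 5 h (adjusted p = 0.00365), and every array at 5 h lay below every array at 0 h. With median scaling the fall was not called. Tbc1d23 arrays read 3.12, 3.21 and 2.69 at 0 h, 3.26, 3.21 and 2.71 at 1 h, 2.85, 2.81 and 2.27 at 3 h, and 2.67, 2.86 and 2.19 at 5 h, below the CAT arrays at each time without overlap. The difference from 0 h was -0.43 ± 0.205 at 5 h (adjusted p = 0.321; 0.00165 with the slide as a block).

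Sizes of induction spread widely in the CAT line. At 5 h the fitted log2 rise was over 5 for 13 of the 38 genes and from 3 to 5 for 9. It was from 2 to 3 for 13 and from 1 to 2 for Sp100 and Ifitm3. Mx1 and Oas1g are among those over 5, but no CAT array at 0 h was well above background for them. The size of their rise is therefore not measured. The Tbc1d23 line had rises over 1 for Rsad2, Ifit1 and Ifit3 and under 1 for the other 35 genes. Median rises at 5 h in the CAT line were 3.28 for the 11 genes with an ISRE core match and 3.00 for the 18 tested genes whose promoter was in the table without one (range -0.80 for Ifi30 to 8.57 for Isg20).

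**Figure D4:**
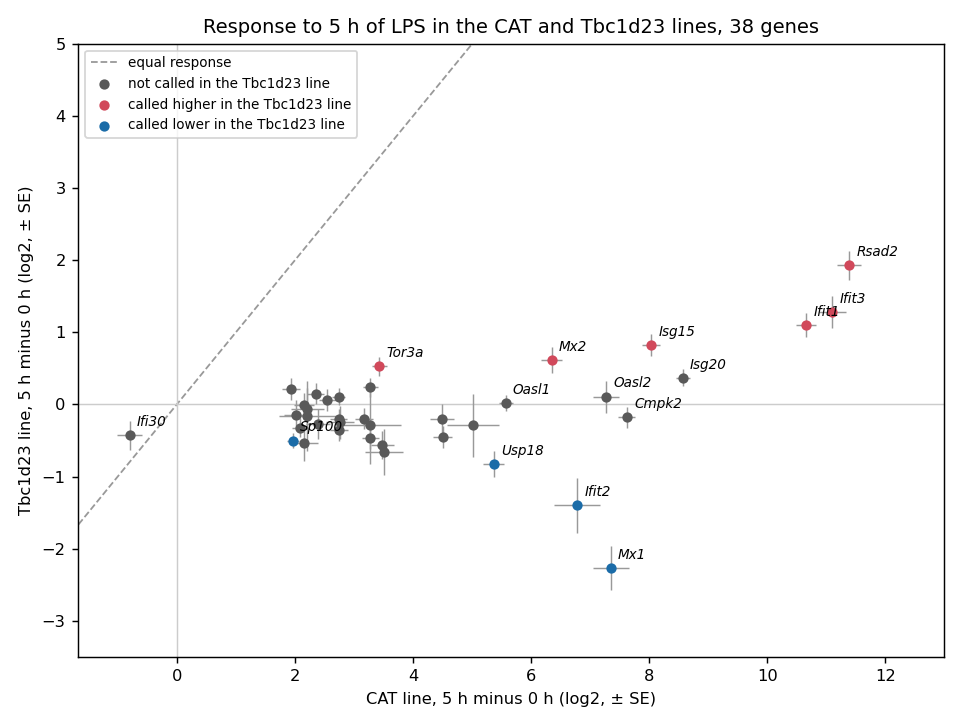
Log2 difference of 5 h minus 0 h in the Tbc1d23 line (vertical) against the CAT line (horizontal) for the 38 genes, with standard errors. Each axis uses its own 0 h arrays. CAT values run from -0.80 (Ifi30) to 11.39 (Rsad2), and the highest Tbc1d23 value is 1.93 (Rsad2). The lowest points, Mx1 and Ifit2, had no Tbc1d23 array well above background at 5 h. Mx1 and Oas1g had no CAT array well above background at 0 h, so the size of their CAT values is not measured.

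The start levels of the lines differed for many of these genes, mostly upward in the Tbc1d23 line. At 0 h 17 of 38 were called higher and 4 lower in Tbc1d23 arrays, against 25.3% and 20% of all gene names. The median difference was 0.36 where that of all gene names was 0.09. Higher starts were seen for Isg20 (2.25), Oas1g (at least 2.2-fold), Ifit1 (1.65 ± 0.168), Ifit3 (1.61 ± 0.225), Rsad2 (1.51 ± 0.204), Mx2 (1.39 ± 0.18) and Usp18 (1.29 ± 0.179). By role, 2 of 3 IFIT genes, both Isg15 and Usp18, both Mx genes on the probes used, 5 of 7 OAS genes and 0 of 3 PARP genes started higher. The Mx1 call sets 1 of 3 Tbc1d23 arrays well above background against no CAT array, and a second Mx1 probe gave -0.01 (adjusted p = 0.981). The 4 lower starts were those of Samd9l, Sp100, Ifi30 (-1.42 ± 0.205) and Sp110 (-0.40 ± 0.149). Of these, Samd9l passed the filter only through CAT groups. On the probes used, start differences were 0.02 ± 0.209 for Parp14, 0.02 ± 0.133 for Adar and 0.06 ± 0.137 for Parp12, with adjusted p of 0.961, 0.918 and 0.74. A second Adar probe, well above background on all 24 arrays, gave 0.68 (adjusted p = 2.58e-06), and a Parp14 probe that was so on 10 arrays gave 1.32 (adjusted p = 0.013). Tor3a was called higher on the probe used (0.45) and lower on a second (-0.74, adjusted p = 7.86e-05), both on all 24 arrays. Other Sp100 probes gave -1.05 (adjusted p = 8.23e-06) and 0.12 (adjusted p = 0.791).

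Within the serial run that holds both lines, with 1 Tbc1d23 array per time, the median start difference of the list was 0.45. The split of calls depended on the scaling: with arrays set to their median, 6 were higher and 4 lower and the median was -0.20, where that of all gene names was -0.46. Isg15, Usp18, Mx2, Oas2, Oas3, Oasl1, Oasl2, Bst2, Xaf1, Ifi44 and Tor3a were then not called. The share of all gene names called with that scaling is not given. Both settings place the list above the median of all gene names. The start of Ifi44 was 1.78 ± 0.532 higher (adjusted p = 0.0106), but 1.01 within the shared run, and the call ended without Tbc1d23 replicate 2 at 0 h (1.50, adjusted p = 0.0519). In the shared run the starts of Isg15 (0.68, adjusted p = 0.0529), Oas1g (1.40, 0.0778), Oas3 (0.78, 0.0983), Sp110 (-0.32, 0.267) and Tor3a (0.40, 0.0944) were not called, and those of Eif2ak2 (0.50) and Nmi (0.58) were. Leaving out single arrays also ended the start calls of Oas3 (12 of 24 arrays), Sp110 (3) and Tor3a (2).

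**Figure D5:**
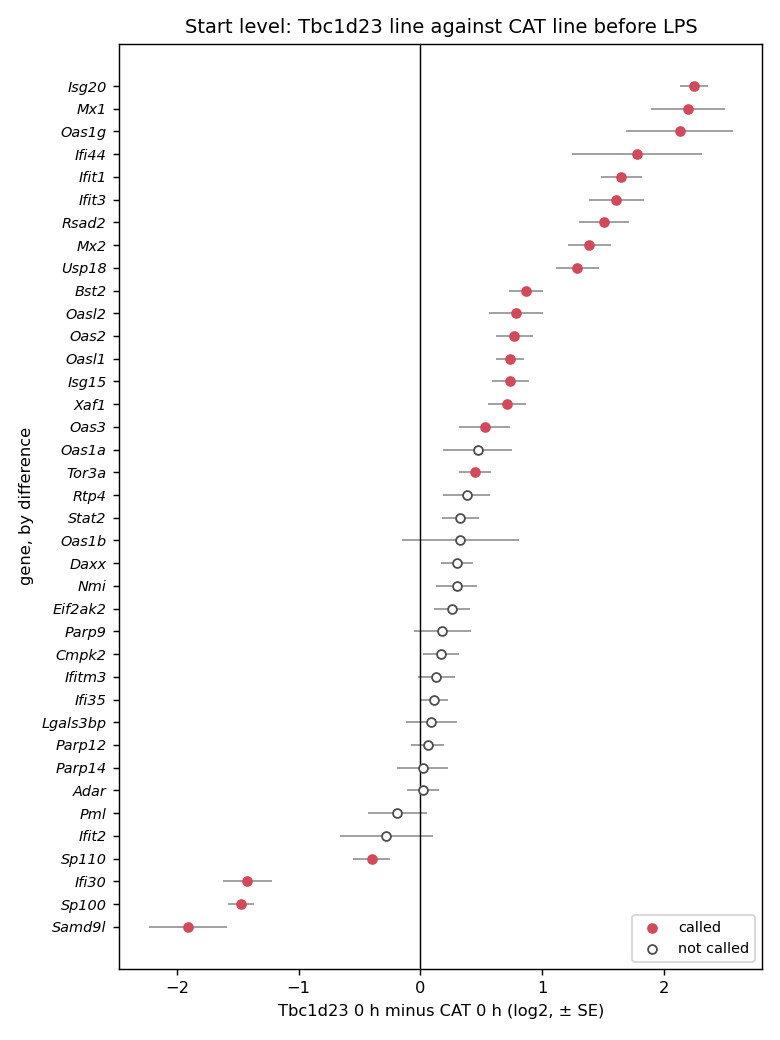
Log2 difference of Tbc1d23 0 h minus CAT 0 h with its standard error for the 38 genes, ordered by size, with called genes marked. Among genes well above background in both lines, differences run from -1.47 (Sp100) to 2.25 (Isg20). The points of Samd9l, Mx1 and Oas1g rest on a group with no array well above background, so their size is not measured.

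With LPS the order of the lines turned by 3 h, but not yet at 1 h. At 1 h 19 of 38 were higher and 8 lower in the Tbc1d23 line, against 24.8% and 21.1% of all gene names. With median scaling 7 were called higher at 1 h. The 8 lower genes included some already induced in CAT cells, Isg15 (-2.50), Ifit1 (-2.29), Oasl1 (-2.22) and Rsad2 (-0.58). At 3 h 0 were higher and 34 lower, against 27.4% and 23.7%, with a median of -2.14 (34 within the shared run). At 5 h 0 were higher and 38 of 38 lower, against 30.2% and 23.4%, with a median of -3.14, and -3.36 within the shared run. The arrays of the 2 lines did not overlap at 5 h for any of the 38, against 26.6% of all gene names that were lower without overlap. Ifit2, Mx1, Oas1b and Samd9l passed the filter only through CAT groups. Their lower levels and lack of overlap are therefore not independent of the filter. The call of Ifi44 at 5 h ended without Tbc1d23 replicate 3 (-1.78 became -1.21, adjusted p = 0.0627).

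The difference in response, that is the change from 0 h in the Tbc1d23 line minus that in the CAT line, was tested as an interaction, which compares changes and not levels. At 1 h it was called higher for 1 gene and lower for 6, against 0.623% and 1.78% of all gene names. At 3 h it was lower for 34 and higher for none, against 8.49% and 8.25%, with a median of -2.48. At 5 h it was lower for 37 and higher for none, against 10.6% and 12.7%, with a median of -3.47. At an unadjusted p under 0.05 limma also placed 0 genes higher in line difference or in response at 3 and 5 h. Without Ifit2, Mx1 and Oas1b, 35 of 35 were lower in level at 5 h, and the response was lower for 32 at 3 h and 34 at 5 h. The 35 include Samd9l, which passed the filter only through CAT groups, so its lower level is not independent of the filter. Within the shared run the response was lower for 5, 33 and 37 at the 3 times. The 38th gene at 5 h was Ifi30 (0.37 ± 0.29, adjusted p = 0.451), called higher with the slide as a block (adjusted p = 0.0186).

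By role, the difference in response at 5 h was -9.82 ± 0.319 for Ifit3 and -9.57 ± 0.238 for Ifit1. It was -7.21 ± 0.213 for Isg15, -9.46 ± 0.289 for Rsad2 and -7.80 ± 0.204 for Cmpk2 (adjusted p = 2.92e-14, 3.77e-14 and 6.63e-15). In the OAS family it ran from -2.27 ± 0.401 for Oas1a to -7.16 ± 0.314 for Oasl2. It was -3.37 ± 0.208 for Eif2ak2, -2.42 ± 0.188 for Adar, -4.69 ± 0.295 for Parp14, -2.20 ± 0.199 for Bst2 and -1.72 ± 0.215 for Ifitm3. Nuclear body genes lay between -3.04 (Daxx) and -2.47 (Sp100), and Stat2 was at -3.74 ± 0.213. The calls of Oas1b (-2.37, adjusted p = 0.0148) and Ifitm3 (adjusted p = 5.96e-06) ended with median scaling (adjusted p = 0.0646 and 0.0679), and that of Oas1b also with quantile normalization (adjusted p = 0.067).

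At 1 h 5 of the 6 genes called lower were those with a CAT onset at that time. Ifit1 (-3.95 ± 0.238), Isg15 (-3.24 ± 0.213), Oasl1 (-2.97 ± 0.164), Rsad2 (-2.09 ± 0.289) and Isg20 (-1.12 ± 0.163) were lower, as was Mx1, of whose 12 arrays at 0 and 1 h only 1 was well above background, so that no size is given. Stat2 was higher (0.88 ± 0.213, adjusted p = 0.0299). Its change at 1 h was -1.16 in the CAT line and -0.28 in the Tbc1d23 line. Leaving out any of 8 single arrays ended the call of Mx1, and any of 7 that of Stat2. The call of Stat2 also ended with median scaling, quantile normalization, normexp, the deposited values and no filter on dim probes.

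The genes upstream of the list give the setting. Ifnb1, the interferon-beta ligand, was not well above background at 0 h in either line. CAT levels were -6.30, -6.10 and -6.45 at 0 h, 1.73, 2.15 and 1.91 at 1 h, 3.27, 3.17 and 2.75 at 3 h, and 2.34, 2.19 and 2.19 at 5 h, at least 92.5-fold above 0 h at 1 h and at least 203-fold at 3 h. Tbc1d23 levels were -4.50, -5.15 and -5.81 at 0 h, -1.96, -2.30 and -1.91 at 1 h, -2.27, -1.97 and -1.90 at 3 h, and -1.80, -1.53 and -1.40 at 5 h, at least 4.22-fold at 1 h and at least 5.88-fold at 5 h. The 2 lines did not overlap after LPS, and the Tbc1d23 level differed from the CAT level by -3.99 ± 0.238 at 1 h (adjusted p = 1.91e-10) and -3.82 ± 0.238 at 5 h. With both 0 h groups below background, the size of the difference in response is not measured. Of the 3 ligand genes that could be tested, Ifnb1 was the one called in either line.

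Receptor subunits started lower in the Tbc1d23 line, with differences of -0.75 ± 0.127 for Ifnar1 and -1.01 ± 0.106 for Ifnar2 (adjusted p = 9.62e-05 and 3.61e-07). The kinase Jak2 rose by 3.06 ± 0.108 in the CAT line and 0.79 ± 0.108 in the Tbc1d23 line at 5 h. Among transcription factors, Irf9 rose by 1.37 ± 0.133, Irf7 by 3.83 ± 0.234 and Irf1 by 2.78 ± 0.177 in the CAT line. Their Tbc1d23 differences at 5 h were -0.05, -0.03 and -0.48, none of them called, and Irf1 was lower with the slide as a block (adjusted p = 0.0175).

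Counted over lists of these roles at 5 h, the CAT line had called rises in 3 of 7 receptors and kinases, 5 of 7 genes of the route from TLR4, 5 of 7 RNA and DNA sensors and 2 of 5 brakes. These stand against 18.5% of all gene names. The Tbc1d23 line had 2, 3, 1 and 1, against 3.04%. The difference in response was called lower for 1, 5, 6 and 2 of these, against 10.6%. The sensors Zbp1 and Ifih1 rose by 8.69 ± 0.163 and 5.45 ± 0.116 in the CAT line, against 0.57 (adjusted p = 0.0419) and 0.27 (adjusted p = 0.24). The brake Socs1 rose by 4.88 ± 0.209 against 0.48 (adjusted p = 0.265).

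Early LPS genes that need no interferon rose in both lines: 8 of 8 were called higher in the CAT line at 5 h, against 18.5% of all gene names, and 7 of 8 in the Tbc1d23 line, against 3.04%. Tnf, the inflammatory cytokine, read -0.24, -0.57 and -0.73 at 0 h, and 6.54, 6.55 and 6.59 at 1 h in CAT arrays and 1.30, 1.29 and 1.65 at 0 h, and 6.60, 6.54 and 6.86 at 1 h in Tbc1d23 arrays. The lines overlapped at 1 h (0.11 ± 0.135, adjusted p = 0.558), although the rise was 7.07 ± 0.135 in one and 5.26 ± 0.135 in the other, from a start 1.92 ± 0.135 higher in the Tbc1d23 line. At 5 h the difference of Tnf between the lines was -2.45 ± 0.135. Cxcl2, a neutrophil chemokine, and Nfkbia, the NF-kB inhibitor, likewise overlapped at 1 h (-0.19 and -0.16, adjusted p = 0.575 and 0.383) and were lower at 5 h (-2.94 and -1.36).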

How the data were processed

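RNA of 24 samples was measured on 24 one-colour (Cy3) Agilent arrays with 43379 non-control spots for 41174 probes, 4 arrays to a slide. The authors deposited scanner files of Feature Extraction (version 10.7.1.1 per the file headers), whose processed signal is an intensity after background and spatial correction. They also deposited a value table of log2 values, and RMA and Partek stand beside Feature Extraction in the submitters' processing notes. Outlier spots (0.11 to 0.41% of an array) were left out, and 0 spots were saturated.

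Spots of a probe were averaged, and log2 of the processed signal minus log2 of the array's 75th percentile of it (157 to 364) was tested. A probe was kept where every array of 1 group or more had it well above background (21948 probes), and the brightest stood for each of 15085 gene names. For 34 of the 38 genes the probe's accession matched RefSeq. A fit of 8 group means in limma 3.58.1 (R 4.3.3) with a shared spread gave each contrast, adjusted by Benjamini-Hochberg over all gene names, and was checked on simulated data. For a gene at background on every array of a group the fold is a lower bound against the lowest signal well above background, or the gene's own where higher (floor -5.11 to -3.38 in log2). The number of arrays limits the precision, and the labels leave it unsaid whether replicates were separate cultures, so the p-values rest on the spread among these arrays, which may be technical.

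Values for every array are given for Tbc1d23 as the check of the construct, for 20 listed genes chosen over the roles, and for the genes with the highest or lowest value of a contrast. The genes and lists were chosen with earlier results of these data known. Same-numbered arrays of a line share a slide and deviated together (r = 0.186 to 0.687 over 18 CAT pairs and 0.52 to 0.826 over 18 Tbc1d23 pairs), so the number pairs arrays within a line. Alternatives changed scaling, background, filter, probe, blocks, spread and arrays.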

Additional observations from a re-analysis of the deposited data

Results flagged for a closer look

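The LPS response differed between the lines by the interaction test in limma, with 6 of the 38 genes lower in the Tbc1d23 line at 1 h, 34 at 3 h and 37 at 5 h.

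Some genes were called higher than 0 h in the CAT line and lower in the Tbc1d23 line. At 3 h these were Ifit2 (difference in response -6.11), Cmpk2 (-6.59), Mx1 (-7.37), Stat2 (-2.58) and Rtp4 (-4.11). At 5 h they were Ifit2 (-8.19), Usp18 (-6.20), Mx1 (-9.63) and Sp100 (-2.47). Ifit2 and Mx1 were not well above background on any Tbc1d23 array after LPS, so the size of their fitted values is not measured. With median scaling 1 gene was called lower in the Tbc1d23 line at 3 h and 1 at 5 h, against 5 and 4 with the scaling used. Quantile normalization gave 3 lower calls at 3 h. The lower calls of Usp18 and Sp100 at 5 h ended with median scaling and in the serial run that holds both lines, with 1 Tbc1d23 array per time. Stat2 was the gene whose response at 1 h was higher in the Tbc1d23 line, by 0.88. That call ended with median scaling and with quantile normalization, among other settings.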

How the results depend on the processing

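Of 13 alternatives besides leaving out 1 array, none changed the direction of the CAT response or of the line difference at 3 and 5 h over the list. Many of the values that moved are given by setting, but not all of them. Each count is of the 38 genes, called higher unless said otherwise. The share of all gene names called in these settings is not given, so the counts are not read against it. The planned normexp background correction failed on 6 arrays and was run with repaired parameters, a choice made after seeing the data, as was leaving out 2 resting Tbc1d23 arrays.

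With arrays scaled to their median, the median of all gene names moved from 0.09 to -0.46 for the start difference. The list's start difference then had 6 calls and a median of -0.20, with Oas3 at -0.02, Tor3a at -0.11 and Irf9 at -0.08. Its Tbc1d23 medians were 0.61, 0.44 and 0.09 at 1, 3 and 5 h (3 calls at 5 h), Ifnar2 was at 0.15 at 3 h, and the steps gave 10 calls from 3 to 5 h in the CAT line and, in the Tbc1d23 line, 0 from 1 to 3 h and 0 from 3 to 5 h (median -0.36). The line difference at 5 h was -3.40, and at 1 h it had 7 calls against 19. Lower calls numbered 0 at 1 h and 0 at 5 h in the CAT line, and 1 at 3 h and 1 at 5 h in the Tbc1d23 line. The difference in response was lower for 3 and 21 genes at 1 and 3 h, with medians of 0.53, -1.89 and -3.17 at 1, 3 and 5 h, and 1 gene had its Tbc1d23 onset at 1 h. Quantile normalization and the deposited values each gave 1 call from 3 to 5 h in the Tbc1d23 line, 6 CAT onsets at 5 h, 1 Tbc1d23 onset at 1 h and 0 at 3 h, and Ifnb1 at -0.08 at 0 h.

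With normexp the CAT medians were 1.77 at 3 h, 2.90 at 5 h and 1.91 from 1 to 3 h, the line differences -1.83 and -2.73, and the differences in response -1.92 and -2.96 at 3 and 5 h. CAT onsets were 3 at 1 h, 5 at 5 h and 2 at no time, and Tbc1d23 onsets 0 at 3 h and 0 at 5 h. Tbc1d23 calls were 0 at 1 h and 2 from 3 to 5 h, and Ifnar2 stood at 0.02 from 0 to 3 h and 0.05 from 1 to 3 h. With probes well above background on all arrays (31 genes) the CAT medians were 1.99 at 3 h and 2.08 from 1 to 3 h, the line difference at 5 h -2.88, and the differences in response -2.19 and -3.04. Tbc1d23 calls were then 0 at 1 h, 1 at 3 h and 2 from 3 to 5 h, with onsets of 0 at 3 h and 1 at 5 h. With no filter, Tbc1d23 calls were 0 from 1 to 3 h and 1 from 3 to 5 h. With the mean of a gene's probes they were 0 at 1 h, 1 at 3 h and 0 from 1 to 3 h, with 0 onsets at 3 h, and Tor3a started at -0.15.

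The replicate block within a line, which is the slide, gave 2 Tbc1d23 calls at 1 h and 4 at 3 h, as did the slide as a random block (correlation 0.571). Across the lines the replicate numbers do not pair arrays (r = -0.434 to 0.0292 over 48 pairs), and that replicate block gave 18 start calls against 17. The serial run as a block turned Pml to 0.29 at 0 h and 0.36 at 1 h. In the run that holds both lines, with 1 Tbc1d23 array per time, the median line difference of the list was -3.36 at 5 h. Without the 2 resting arrays Tbc1d23 calls were 1 at 3 h and 3 at 5 h, with onsets of 1, 0 and 1 at 1, 3 and 5 h. Leaving out 1 array gave 0 to 2 Tbc1d23 calls at 1 h, 0 to 1 from 1 to 3 h and 1 to 4 from 3 to 5 h, and 0 to 1 Tbc1d23 onsets at 1 h and 0 to 1 at 3 h. The cause was not tested in any of these cases. Where a gene is near background, the signal limits what can be measured.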

Other observations

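For 13 genes more than 1 probe passed the filter, and for some of them the probes gave different values. The start difference of Ifit2 (Tbc1d23 0 h minus CAT 0 h, log2) was -0.28 on the probe used and 1.83 on a second. That of Sp100 was -1.47 on the probe used and -1.05 and 0.12 on others, and that of Tor3a 0.45 and -0.74, both called. Adar gave 0.02 and 0.68, Isg20 2.25 and 1.36, and Mx1, near background, 2.20 and -0.01. Parp14 gave 0.02 on the probe used and 0.81 and 1.32 on others. Rsad2 gave 1.51, 1.32 and 1.19, and its change from 0 to 5 h in the Tbc1d23 line was 1.93, 0.70 and 1.89. Which transcripts the probes share was not tested.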
